A study of Mus musculus with 49 samples.

Results

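The Ugt, Sult and Gst genes encode the enzymes that join a drug or a body compound to a soluble partner, and they were followed here in mouse liver after an overdose of acetaminophen (APAP, paracetamol). They were taken by gene symbol alone: every gene named Ugt1 to Ugt3, Sult with a digit, or Gst of the classes alpha, mu, pi, theta, kappa and omega (a, m, p, t, k and o) that has a probe set assigned to a single gene. The rule found 42 of the 18194 genes measured on the complete arrays, namely 10 Ugt, 13 Sult and 19 Gst genes. On the probe sets that have values on every array it found 21 of 5976 genes, namely 2 Ugt, 8 Sult and 11 Gst genes. A further 5 probe sets carry several gene symbols that include a matching one and were left out, and 3 of them list 8 Ugt1a symbols each, so no Ugt1a gene is described. Gsta1 was likewise not measured by a probe set of its own.

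All animals were male C57BL6/N mice. The treated groups received 1 intraperitoneal dose of 300 mg/kg APAP in warm phosphate-buffered saline after a night without food, were fed freely afterwards, and were sampled within hours (1 h, 6 h and 12 h), over the first days (1 d, 2 d and 4 d) and later (6 d, 8 d and 16 d), where 16 d is known from the sample labels only. The control group is labelled as untreated, and the labels do not say whether its mice were starved or injected with vehicle, so feeding, injection and drug cannot be told apart in a comparison with it. There were 49 arrays of whole liver RNA in 10 groups of 5, except 4 at 6 h, and nothing in the labels states that each array is a separate mouse, so each p-value reflects the array-to-array spread alone, which may be technical. The 25 arrays of the 1 h, 12 h, 1 d, 2 d and 16 d groups hold 45101 probe sets and were compared with the 1 h group, itself already dosed. The 1 h group was sampled soon after the night without food, and the later groups after longer free feeding. Feeding and drug therefore cannot be told apart in a comparison with 1 h either. The other 24 arrays hold 8137 or 8138 probe sets, and 8137 were shared by all arrays and allowed comparison with the control.

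As background, glucuronosyltransferases (Ugt) sit in the endoplasmic reticulum and add glucuronic acid from UDP-glucuronic acid, sulfotransferases (Sult) are cytosolic and add sulfate from the donor PAPS, and glutathione transferases (Gst) join glutathione to reactive compounds. Most APAP is glucuronidated or sulfated. A smaller part is oxidised by cytochromes such as Cyp2e1 to a reactive quinone imine that glutathione captures, and an overdose kills hepatocytes around the central vein once glutathione is used up. Several Gst genes are known targets of NRF2, a transcription factor of the oxidative stress response that binds antioxidant response elements.

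Values are log2 RMA expression values, in which a difference of 1 is a 2-fold change. A gene was called where limma's adjusted p (Benjamini-Hochberg over all genes of the comparison) was under 0.05, and "rose" or "fell" is used of called genes. The liver markers Alb, Apoa1 and Ttr had mean values of 14.19, 14.01 and 13.88 at 1 h, against a highest gene value of 14.34 on any complete array. Control replicate 3, 1 h replicate 3 and 16 d replicate 4 had a narrower spread of values (SD 2.25 to 2.26) than the other 46 arrays (2.40 to 2.48). They correlated at 0.981 to 0.990 with each other and at a median of 0.964 to 0.965 with all other arrays, where the median for the remaining arrays was 0.977. The number of called Ugt, Sult and Gst genes without these 3 arrays is given where it differed by over 1.5 times. Of the 42 genes, 6 had a mean under 4 and lie near background (Sult2b1, Sult2a2, Sult1c1, Gsto2, Sult3a1 and Sult6b1), where a change in RNA would show weakly. Gstp1, at a mean of 13.62, lies near the top of the scale.

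Over the acute phase more of the genes fell than rose. Against 1 h, 16 genes were lower and 1 higher at 12 h, where 10.3% of all genes tested were lower and 8.29% higher. At 1 d 22 were lower and 1 higher, against 11.7% and 11.6% of all genes. At 2 d 19 were lower and 2 higher, against 13.3% and 14.8% of all genes. The median log2 difference of the 42 genes was -0.21, -0.67 and -0.45 at these times, and that of all genes was -0.08, -0.07 and -0.08. At 16 d 2 genes were lower and 5 higher, against 1.32% and 1.46% of all genes, with medians of 0.01 for the 42 genes and -0.01 for all. The 12 h count of 17 dropped to 11 without 12 h replicate 2. The 16 d count of 7 dropped to between 2 and 4 without any of 16 d replicates 1, 2, 3 and 5 or 1 h replicates 3 and 5.

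**Figure D1:**
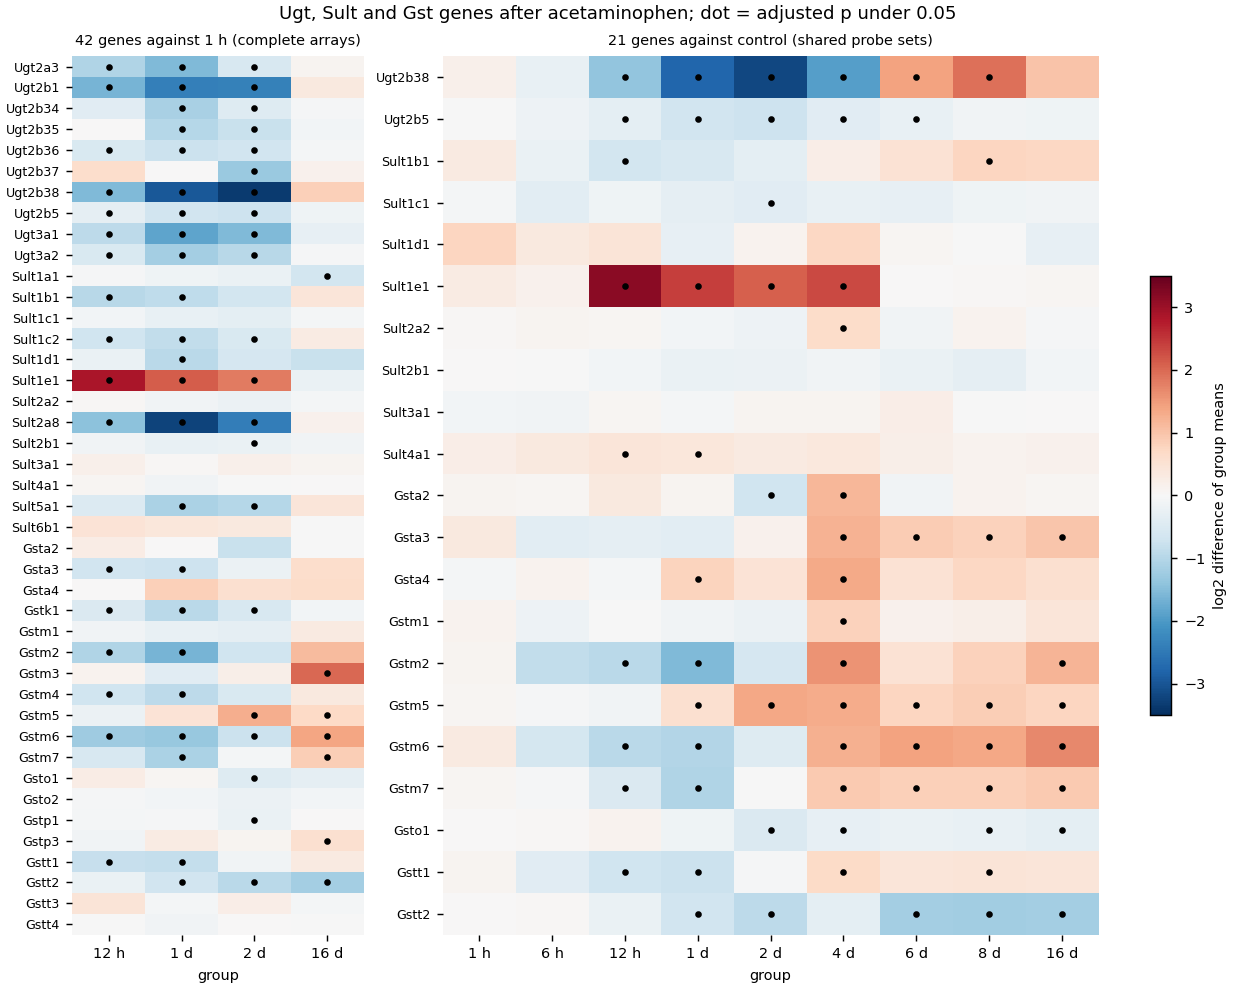
Log2 differences of group means for the 42 genes against 1 h (left, complete arrays) and for the 21 genes on the shared probe sets against control (right), blue for lower and red for higher, with a dot where the adjusted p was under 0.05. Of the 10 Ugt genes 9 are called lower at 1 d (not Ugt2b37) and 10 at 2 d, Sult1e1 is red from 12 h to 4 d, and most Gst genes turn red at 4 d.

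Successive times were also compared. From 12 h to 1 d 5 genes fell (Sult2a8, Ugt2b34, Ugt2b35, Ugt3a1 and Ugt3a2) and 0 rose, where 0.747% of all genes fell and 1.02% rose. At an unadjusted limma p under 0.05, 3 of the 42 genes were higher and 14 lower, where 11.4% of all genes passed in either direction. From 1 d to 2 d 5 genes rose and 2 fell, against 6.39% and 2.09% of all genes. From 2 d to 16 d 23 genes rose and 2 fell, against 8.54% and 12.7% of all genes. The median of the 42 genes between 2 d and 16 d was 0.53, that of all genes 0.06. Quantile normalization gave 2 higher and 8 lower genes between 12 h and 1 d.

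Most glucuronosyltransferases fell. Of the 10 Ugt genes 7 were lower at 12 h, 9 at 1 d and 10 at 2 d, and 0 were higher at any of the 3 times, also at an unadjusted limma p under 0.05. Of all genes 31.6%, 35.7% and 40.8% passed that limit in either direction. Their median log2 differences were -0.54, -1.16 and -0.88. At 16 d 0 of the 10 Ugt genes were called in either direction and 0 had an unadjusted p under 0.05, where 11.5% of all genes did. From 2 d to 16 d 9 of the 10 rose, 7 of them with every array left out in turn (not Ugt2a3 and Ugt2b35). All 9 calls at 1 d were kept when any 1 array of the compared groups was left out, as were 5 of 7 at 12 h and 8 of 10 at 2 d. The exceptions were Ugt2b38 and Ugt2b5 at 12 h and Ugt2a3 and Ugt2b34 at 2 d, whose highest adjusted p was 0.0766, 0.0771, 0.137 and 0.133. The 12 h call of Ugt2b38 was lost without 12 h replicate 2 or 1 h replicate 5. That of Ugt2b5 was lost without any of 12 h replicates 1, 2 and 5 or 1 h replicates 1, 4 and 5. At 2 d the call of Ugt2a3 was lost without 1 h replicates 1, 4 or 5 or 2 d replicates 4 or 5, and that of Ugt2b34 without 1 h replicates 1, 2, 3 or 4 or 2 d replicates 2, 4 or 5.

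**Figure D2:**
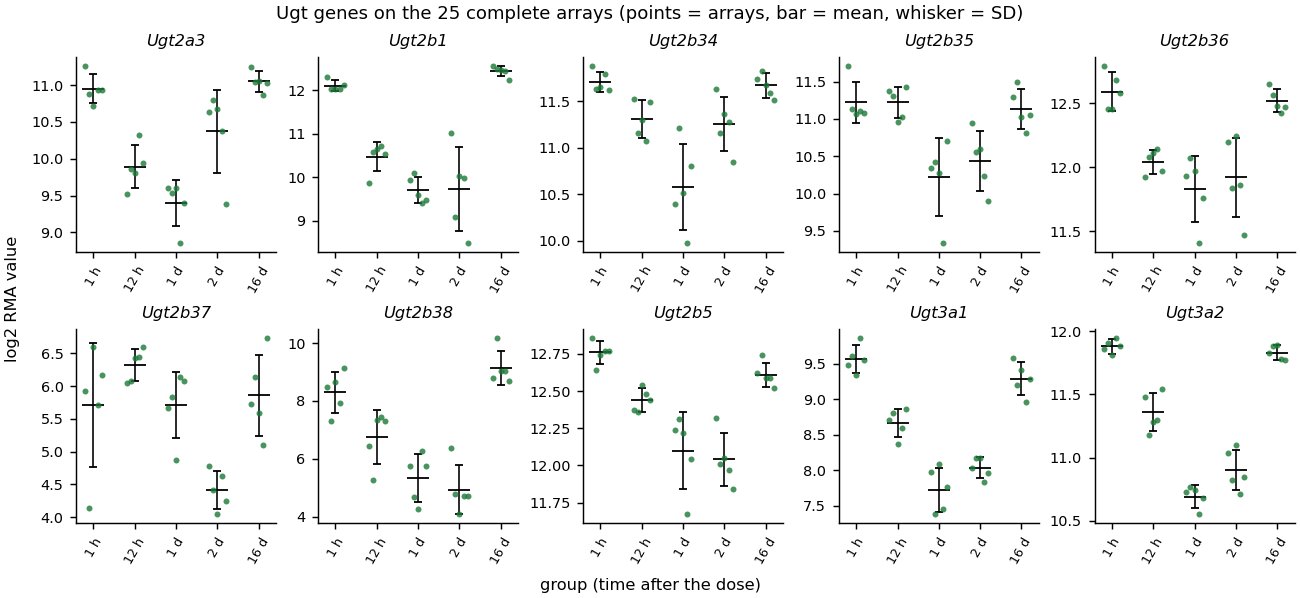
Log2 RMA values of the 10 Ugt genes on the 25 complete arrays, by group; points are arrays, bars are group means and whiskers are SD (n = 5). Ugt2b1 falls from a mean of 12.11 at 1 h to 9.71 at 1 d and stands at 12.44 at 16 d.

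Ugt2b38, a gene of the Ugt2b cluster, had the lowest difference of the 42 genes at 2 d. Its 5 arrays stood at 8.49, 7.30, 8.65, 7.93 and 9.13 at 1 h. They stood at 6.44, 5.27, 7.33, 7.46 and 7.30 at 12 h, at 5.75, 4.69, 4.27, 6.27 and 5.75 at 1 d, and at 6.39, 4.79, 4.10, 4.70 and 4.72 at 2 d. Every 1 d and 2 d array lay below every 1 h array, while the 12 h arrays overlapped them. The difference from 1 h was -1.54 at 12 h, -2.95 at 1 d (SE 0.46, adjusted p = 4.25e-05) and -3.36 at 2 d (adjusted p = 6.17e-06), the last a 10.28-fold lower value. At 16 d the arrays stood at 8.78, 10.19, 9.02, 9.02 and 8.69, above all 2 d arrays, and the rise from 2 d was 4.20 (adjusted p = 3.59e-07).

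Ugt2b1, another liver enzyme of the cluster, had 1 h values of 12.31, 12.04, 12.03, 12.04 and 12.12. At 12 h it stood at 9.88, 10.58, 10.66, 10.73 and 10.54, and at 1 d at 9.94, 10.11, 9.59, 9.42 and 9.48. All of these arrays lay below the 1 h range. The 2 d arrays were spread more widely, at 11.02, 9.10, 10.04, 9.99 and 8.50. The falls were -1.63, -2.40 and -2.38 (SE 0.28 or 0.29 each, adjusted p = 0.000251, 1.33e-06 and 9.3e-07). At 16 d the gene was back at 12.56, 12.50, 12.46, 12.45 and 12.24, a difference of 0.34 from 1 h that was not called (adjusted p = 0.806).

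Ugt3a1 and Ugt3a2 are neighbours on chromosome 15 and belong to a family whose known human enzymes use other sugar donors. Ugt3a1 stood at 9.49, 9.61, 9.34, 9.87 and 9.56 at 1 h and at 7.98, 7.38, 8.09, 7.45 and 7.76 at 1 d, a fall of -1.84 (SE 0.14, adjusted p = 3.12e-09) with no overlap. Ugt3a2 stood at 11.86, 11.91, 11.81, 11.95 and 11.88 at 1 h and at 10.73, 10.77, 10.74, 10.55 and 10.68 at 1 d, a fall of -1.19 (SE 0.09, adjusted p = 1.61e-09), also with no overlap. Both were lower at 12 h as well, by -0.91 and -0.53, and both fell further from 12 h to 1 d, by -0.93 and -0.66. Neither differed from 1 h by a called amount at 16 d.

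The other Ugt2 genes differed in timing. Ugt2a3, the adjacent gene of the same cluster, fell by 1.05 at 12 h and 1.55 at 1 d (adjusted p = 4.6e-06) and rose again by 0.98 from 1 d to 2 d. Its 1 h arrays stood at 11.26, 10.88, 10.72, 10.93 and 10.94, and its 1 d arrays at 9.60, 9.53, 9.60, 8.86 and 9.40. Ugt2b35 had a difference of 0.00 at 12 h, then -1.0 at 1 d (adjusted p = 0.00105) and -0.78 at 2 d. Its values at 12 h were 11.38, 11.31, 10.96, 11.03 and 11.43, and at 1 d 10.34, 10.42, 10.28, 9.34 and 10.71. Ugt2b37 was called at 2 d only, at 4.78, 4.41, 4.04, 4.62 and 4.24 against 5.92, 4.14, 6.60, 5.71 and 6.17 at 1 h, a difference of -1.29 (adjusted p = 0.00609) with overlapping arrays, and the 12 h and 1 d differences were 0.60 and 0.00. Ugt2b5 fell by 0.32, 0.66 and 0.72 at 12 h, 1 d and 2 d. Ugt2b36 fell by 0.55, 0.76 and 0.67, and Ugt2b34 was lower by 1.13 at 1 d.

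By the RefSeq order of coding genes on GRCm38.p6, Ugt2b34, Ugt2b1, Ugt2b35, Ugt2b36, Ugt2b5, Ugt2b37, Ugt2a3 and Ugt2b38 follow each other on chromosome 5. Sult1b1, Sult1d1 and Sult1e1 come next after 2 other coding genes. Such tandem copies are similar in sequence, and a probe set can take up RNA of a near copy, so the values of neighbouring genes are not fully independent. The direction of change was not shared along the whole stretch: at 12 h the Ugt genes of the cluster were lower or not called, Sult1b1 was lower by 0.98 and Sult1e1 was higher by 2.86.

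Only Ugt2b38 and Ugt2b5 could be set against the control and followed at 6 h and from 4 d to 8 d. Ugt2b38 stood at 6.69, 8.71, 7.91, 9.61 and 7.72 in control. At 4 d it was at 4.89, 6.39, 6.71, 6.84 and 6.16, still lower by 1.93 (adjusted p = 0.00189), with 2 arrays inside the control range. At 6 d it was at 9.57, 9.41, 9.96, 9.10 and 9.59, and at 8 d at 10.25, 9.98, 10.68, 9.07 and 10.25, where it was higher than control by 1.40 and 1.92 (SE 0.46, adjusted p = 0.047 and 0.00417). The control arrays, spread from 6.69 to 9.61, overlapped those of 6 d and 8 d. The 6 d call was lost without control replicates 1, 3 or 5 or any single 6 d array, and also after quantile normalization, with a trended robust prior, without the 3 narrow arrays and with the compared groups alone (the highest adjusted p with an array left out was 0.191). The 8 d call was kept in each of these. Ugt2b5, at 12.77 ± 0.09 (SD, n = 5) in control, fell by 0.34, 0.68, 0.74 and 0.39 at 12 h, 1 d, 2 d and 4 d, with every array below the control arrays at each of the 4 times. At 6 d Ugt2b5 was still called lower, and its arrays, at 12.41 to 12.60, all lay below the control arrays. That call was lost with at least 1 array left out and in at least 1 other setting. The gene was not called at 8 d and 16 d.

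In whole liver RNA, fewer cells of a type and less RNA per cell cannot be told apart. The summed level of the 6 measured hepatocyte markers, which are Alb, Apoa1, Ttr, Tat, Cps1 and Cyp2e1, was 16.31 to 16.36 on the log2 scale at 1 h, 16.10 to 16.27 at 12 h, 15.98 to 16.19 at 1 d and 16.13 to 16.31 at 2 d. Alb, Apoa1 and Ttr, the highest of the 6 at 1 h, lie near the top of the scale, where differences are compressed. The sum can therefore understate a change. Of the 6 hepatocyte markers 2, 3 and 2 were lower at 12 h, 1 d and 2 d and 0 were higher. Of all genes 10.3%, 11.7% and 13.3% were lower and 8.29%, 11.6% and 14.8% higher at these times. The 3 measured neutrophil markers summed to 6.62 to 7.69 at 1 h and to 8.25 to 12.39 at 12 h and 9.21 to 12.37 at 1 d, and 2 and 3 of them were higher. The 6 markers of stellate cells and myofibroblasts summed to 9.53 to 9.99 at 1 h and 11.35 to 12.03 at 2 d, with 4 higher, and the 6 of macrophages and monocytes to 9.94 to 10.51 and 11.43 to 12.01, with 3 higher. The 3 markers of dividing cells summed to 6.05 to 6.89 at 1 h and 8.68 to 10.52 at 2 d, with 3 higher, and the erythroid marker Alas2 was lower by 0.75, 1.18 and 1.51 at 12 h, 1 d and 2 d. Of 4 endothelial markers 1, 2 and 2 were higher and 2, 1 and 0 lower at these times, of 4 cholangiocyte markers Sox9 was higher at 12 h and 1 d, by 1.73 and 2.22, and of 2 lymphocyte markers 0, 1 and 2 were lower. Without the 12 h and 1 d arrays highest in neutrophil markers, an alternative chosen after the data were seen, 14, 22 and 20 Ugt, Sult and Gst genes were called at 12 h, 1 d and 2 d against 17, 23 and 21 with them. The part of the other cell types in the falls was not tested.

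Among the sulfotransferases 1 gene rose and several fell. Of the 13 Sult genes 1 was higher and 3 lower at 12 h, 1 higher and 5 lower at 1 d, and 1 higher and 4 lower at 2 d, with medians of -0.09, -0.25 and -0.24. Of all genes 8.29%, 11.6% and 14.8% were higher and 10.3%, 11.7% and 13.3% lower at these times. The Sult gene that was higher was Sult1e1 each time. At 1 d the calls of Sult1b1 and Sult1d1, at 12 h that of Sult1b1, and at 2 d those of Sult1c2 and Sult2b1 were lost when 1 of several arrays was left out. For Sult2b1 it was any 1 of the 10 arrays, and the highest adjusted p among these calls was 0.13.

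Sult1e1, the estrogen sulfotransferase, is usually low in mouse liver. Its control arrays stood at 4.00, 4.09, 5.01, 4.12 and 5.55, and its 1 h arrays at 4.78, 5.20, 4.79, 4.58 and 4.84. At 6 h, 1 of the 4 arrays was higher, at 6.34, and the others were at 3.71, 4.53 and 4.19. At 12 h the arrays stood at 6.95, 8.46, 6.87, 8.43 and 7.79, above every control and 1 h array. The rise against control was 3.15 (SE 0.49, adjusted p = 3.47e-06), an 8.85-fold difference.

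The gene stayed high until 4 d. It stood at 9.45, 5.59, 6.92, 6.00 and 6.87 at 1 d, where 1 array lay far above the others, at 6.94, 7.92, 5.60, 5.77 and 7.05 at 2 d, and at 7.68, 7.02, 6.73, 5.68 and 7.20 at 4 d. The differences from control were 2.41, 2.10 and 2.31 (adjusted p = 0.000134, 0.000687 and 0.000499), with every array above the control arrays. At 6 d it was back at 4.35, 5.20, 4.68, 4.66 and 3.97, a fall of 2.29 from 4 d (adjusted p = 0.00248) with no overlap. The 4 calls against control held with each array left out in turn.

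Sult2a8, a liver sulfotransferase of bile acids, fell at all 3 times. Its 1 h arrays were tightly grouped at 12.07, 12.12, 12.07, 12.27 and 12.17. They stood at 10.21, 11.27, 10.76, 10.41 and 10.84 at 12 h and at 8.91, 8.75, 9.18, 8.59 and 9.06 at 1 d, a difference of -3.25 and a 9.48-fold lower value (SE 0.27, adjusted p = 7.89e-09). At 2 d the arrays were split, with 10.61, 10.31 and 10.14 beside 8.94 and 8.63. At 16 d they were at 12.35, 12.34, 12.32, 12.22 and 12.24. None of the 12 h, 1 d and 2 d arrays reached the 1 h range. The gene was not measured on the control arrays.

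**Figure D3:**
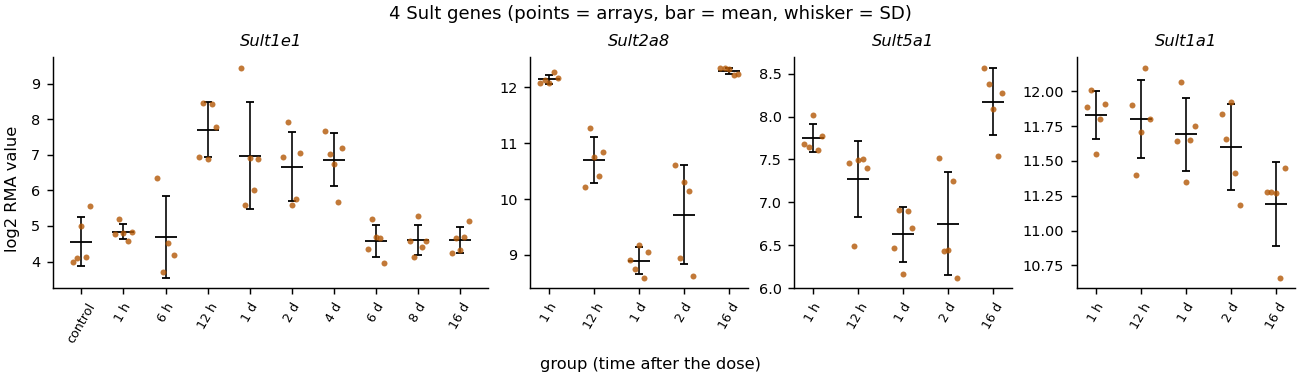
Log2 RMA values by group for Sult1e1 on all 49 arrays and for Sult2a8, Sult5a1 and Sult1a1 on the 25 complete arrays; points are arrays, bars are group means and whiskers are SD (n = 5, 4 at 6 h). Sult1e1 lies at means of 6.66 to 7.70 from 12 h to 4 d and at 4.55 in control, while Sult2a8 falls to 8.90 at 1 d.

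Sult5a1 stood at 7.68, 7.65, 8.02, 7.61 and 7.77 at 1 h and at 6.47, 6.91, 6.16, 6.90 and 6.70 at 1 d, a fall of 1.12 (adjusted p = 0.00136) with no overlap. It was lower by 0.99 at 2 d (adjusted p = 0.0034), and from 2 d to 16 d, where it stood at 8.57, 8.38, 8.09, 7.54 and 8.27, it rose by 1.42. Sult1c2 fell by 0.69, 0.85 and 0.53 at 12 h, 1 d and 2 d. Sult1a1, the phenol sulfotransferase known to act on APAP, stood at 11.89, 12.01, 11.55, 11.80 and 11.91 at 1 h and at 11.64, 12.07, 11.35, 11.65 and 11.75 at 1 d, a difference of -0.14 that was not called. At 16 d it was lower by 0.64 (adjusted p = 0.0297), at 11.28, 11.28, 11.27, 10.66 and 11.45, below every 1 h array. That call was lost without any of 1 h replicates 1, 2, 4 and 5 or 16 d replicates 1, 3 and 4, and without the 3 arrays of narrow spread. On the shared probe sets 8 Sult genes were measured. Apart from Sult1e1, Sult4a1 was higher than control by 0.42 at 12 h and 0.40 at 1 d, on a probe set near background (3.22 in control) and not after median or ribosomal centring or with the compared groups alone, Sult2a2 was called higher than control at 4 d and Sult1c1 lower at 2 d, both near background, and Sult1b1, an enzyme of thyroid hormone sulfation, differed from control by -0.65 at 12 h and 0.74 at 8 d. Each of these calls was lost when 1 of 2 to 8 single arrays was left out, among them control replicate 3 for Sult2a2, Sult1c1 and the 8 d call of Sult1b1, control replicate 2 for Sult4a1 and control replicate 5 for the 12 h call of Sult1b1.

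Some of the glutathione transferases fell in the acute phase. Of the 19 Gst genes 6 were lower at 12 h, 8 at 1 d and 5 at 2 d, with medians of -0.14, -0.25 and -0.21. At 12 h and 1 d 0 were higher, with 1 and 3 higher at an unadjusted limma p under 0.05, which 31.6% and 35.7% of all genes passed in either direction. At 2 d Gstm5 alone was higher. Of the calls at 12 h, 1 d and 2 d, 2 of 6, 6 of 8 and 4 of 6 were kept with each array left out in turn. Gstk1, Gsta3, Gstm2 and Gstm4 at 12 h, Gsta3 and Gstt2 at 1 d, and Gstm6 and Gstp1 at 2 d were the others. At 12 h the call of Gstk1 was lost without 12 h replicate 3 only. Those of Gstm2, Gsta3 and Gstm4 were lost without any 1 of 4, 5 and 7 arrays. At 1 d the call of Gsta3 was lost without 1 d replicates 1 or 4 and that of Gstt2 without 1 d replicates 2 or 4. At 2 d those of Gstm6 and Gstp1 were each lost without any 1 of 5 arrays.

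The mu genes of the chromosome 3 cluster, which stand in the order Gstm5, Gstm7, Gstm6, Gstm3, Gstm2, Gstm1 and Gstm4, did not move as 1 block. Gstm6 stood at 8.76, 8.62, 7.38, 8.55 and 8.14 at 1 h, where the low value is the array of narrow spread. It stood at 6.57, 6.80, 6.95, 7.17 and 7.37 at 1 d, all below the 1 h arrays, a fall of 1.32 (SE 0.25, adjusted p = 0.000401). Gstm2 stood at 8.79, 8.81, 7.40, 8.28 and 8.16 at 1 h and at 6.85, 6.28, 6.47, 6.76 and 6.88 at 1 d, a fall of 1.64 (adjusted p = 0.000367) with no overlap. Gstm7 fell by 1.10 at 1 d and Gstm4 by 0.91. The second probe set of Gstm7, at a lower signal, gave -0.22 at 1 d and was not called.

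Gstm5 went the other way. It stood at 7.52, 7.62, 7.05, 7.61 and 7.66 at 1 h and at 8.82, 8.84, 8.68, 8.67 and 8.80 at 2 d, a rise of 1.27 (SE 0.18, adjusted p = 1.11e-05) with a wide gap between the groups. Gstm1, an abundant mu enzyme of mouse liver, stood at 12.56, 12.16, 11.79, 12.19 and 11.89 at 1 h and 11.98, 11.85, 11.94, 11.81 and 11.78 at 1 d, a difference of -0.25 that was not called. At 2 d the 4 probe sets of Gstm1 differed from 1 h by -0.32 to -0.54. The 1 at -0.54, which has a lower signal than the probe set used, was called (adjusted p = 0.0235), and the others were not. Gstm3 had no called difference at 12 h, 1 d or 2 d (0.12, -0.40 and 0.20) and was higher at 16 d by 2.02 (adjusted p = 0.0196). Its 1 h arrays stood at 9.70, 8.60, 7.76, 8.56 and 7.78 and its 16 d arrays at 10.21, 11.29, 10.77, 9.75 and 10.49, just above them. That call was lost without 1 h replicates 3 or 5 or 16 d replicates 2 or 3. The second probe set of Gstm3 gave 1.37 with an adjusted p of 0.0816.

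Gstp1, the pi-class enzyme, matters for this drug because mice without the pi genes are known to resist it. Its arrays stood at 13.71, 13.66, 13.68, 13.71 and 13.68 at 1 h and at 13.62, 13.68, 13.64, 13.63 and 13.66 at 1 d, near the top of the scale, where differences are compressed. The 2 d arrays, at 13.70, 13.38, 13.38, 13.58 and 13.28, were lower by 0.22 (adjusted p = 0.027), a call lost without any of 1 h replicates 1 and 4 or 2 d replicates 2, 3 and 5.

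Against the control, 4, 5 and 3 of the 11 Gst genes were lower at 12 h, 1 d and 2 d, 0, 2 and 1 were higher, and 9 were higher at 4 d. The 2 at 1 d were Gsta4 by 0.77 and Gstm5 by 0.56. Without any of 1 d replicates 1, 3 and 4 or control replicates 1, 3, 4 and 5, or after median or ribosomal centring, the 1 d call of Gsta4 was lost. At 1 h and 6 h 0 of the 21 genes on the shared probe sets were called by limma, where 0.335% of all genes were higher and 0.301% lower at 1 h and 3.78% and 1.89% at 6 h. At an unadjusted p under 0.05 there were 1 and 5 of the 21, beside 6.26% and 15.4% of all genes. The 5 at 6 h were Gstm2, Gstm6, Gstt1 and Sult1c1, which were lower, and Sult4a1, which was higher. At 6 h array weights called 4 genes, quantile normalization 3, median centring 1, the fit of the compared groups alone 1, and the fit without the 3 narrow arrays 3. Leaving out 6 h replicate 1 or control replicate 3 called 1.

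At 12 h 7 of the 21 genes were lower than control and 2 higher, where 12.2% and 11.5% of all genes were. At 1 d it was 7 and 4, against 13.4% and 16.2%, and at 2 d 6 and 2, against 12.7% and 19.9%. Centring each array on its ribosomal protein genes or on its median changed the split at 1 d to 14 lower and 1 higher or 11 lower and 2 higher, and at 2 d to 11 or 12 lower and 2 higher. The 12 h count of 9 dropped to 5 without 12 h replicates 2 or 3 or control replicate 2. Medians of the 21 genes were -0.12, -0.28 and -0.20, beside -0.05, -0.03 and -0.03 for all genes.

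At 4 d 11 of the 21 genes were higher than control and 3 lower, where 9.99% and 6.54% of all genes were, and the medians were 0.67 for the 21 and -0.02 for all genes. Of the 11 Gst genes 9 were higher and 1, Gsto1, lower, with a median of 1.16. The 9 were Gsta2, Gsta3, Gsta4, Gstm1, Gstm2, Gstm5, Gstm6, Gstm7 and Gstt1, and each call was kept with every array left out in turn. The Gstm1 call rests on a probe set whose name ends in _x_at, and the gene is absent when probe sets ending in _x_at or _s_at are left out. The Gstm genes among the 9 belong to 1 cluster, so the limit given above for tandem copies holds for them too. The remaining gene, Gstt2, differed from control by -0.33 at 4 d and was not called (adjusted p = 0.217). From 2 d to 4 d, a comparison added after the values were seen, 12 genes rose and 0 fell, where 5.77% and 13.5% of all genes did. At an unadjusted limma p under 0.05, 0 of the 21 were lower, where 29.2% of all genes passed in either direction.

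**Figure D4:**
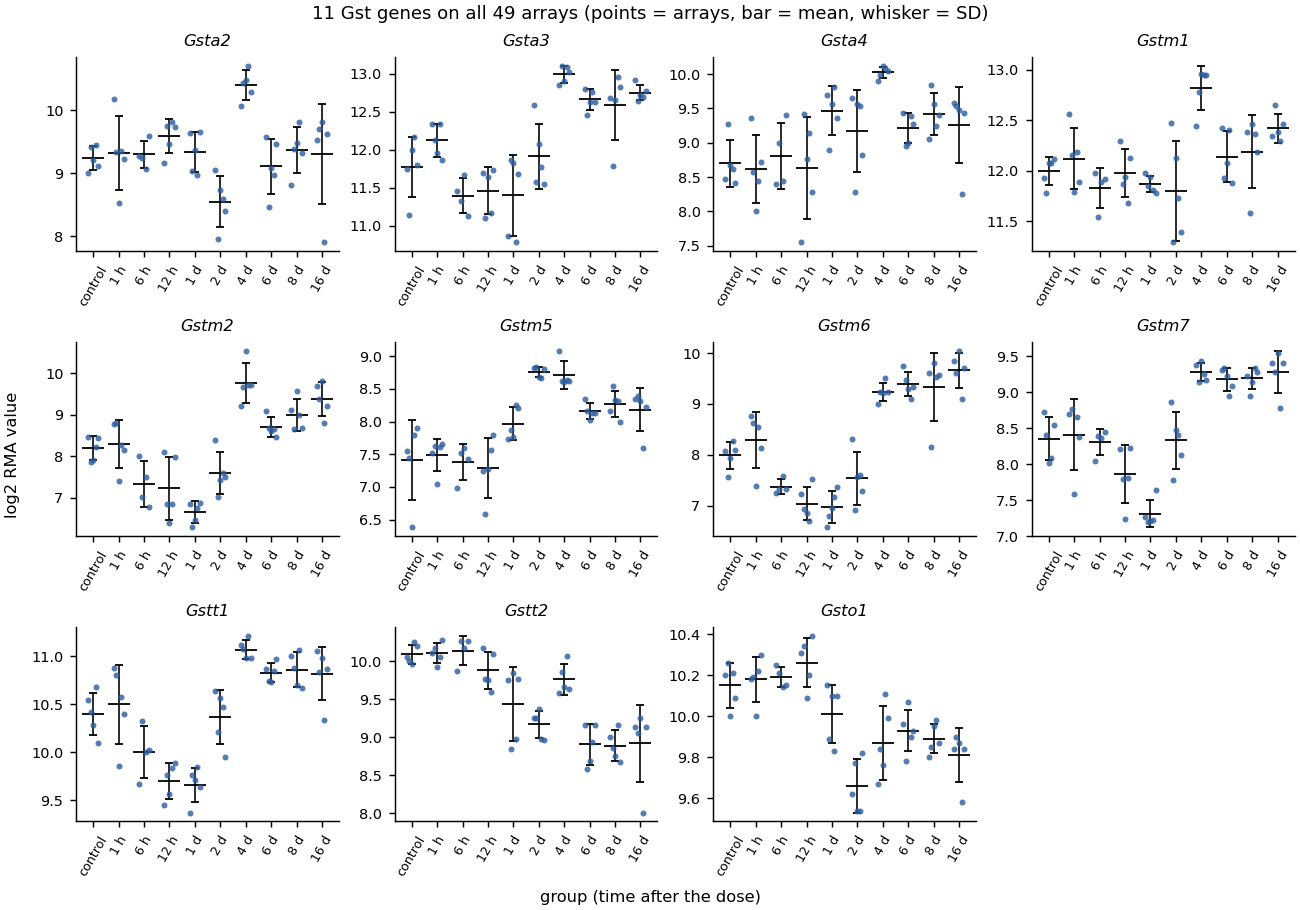
Log2 RMA values of the 11 Gst genes measured on all 49 arrays, by group; points are arrays, bars are group means and whiskers are SD (n = 5, 4 at 6 h). At 4 d Gsta2, Gsta3, Gsta4 and Gstm1 have means of 10.40, 12.99, 10.03 and 12.82, each above all 5 control arrays.

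The alpha genes peaked at 4 d. Gsta2 stood at 9.0, 9.42, 9.21, 9.45 and 9.12 in control, at 9.06, 7.95, 8.73, 8.59 and 8.40 at 2 d, and at 10.07, 10.44, 10.49, 10.71 and 10.29 at 4 d. It was 1.16 above control at 4 d (SE 0.26, adjusted p = 0.00106) and fell by 1.29 from 4 d to 6 d (adjusted p = 0.0014), with no overlap in either comparison. Its 2 d fall of 0.69 against control was lost without any of control replicates 2, 3 and 4 or 2 d replicates 2, 4 and 5. Gsta4, which conjugates the lipid peroxidation product 4-hydroxynonenal, stood at 8.48, 9.28, 8.68, 8.62 and 8.42 in control and at 9.90, 9.99, 10.12, 10.09 and 10.04 at 4 d, a rise of 1.33 (SE 0.28, adjusted p = 0.000445).

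Gsta3, an enzyme known to detoxify aflatoxin in mice, stayed up. It stood at 11.75, 11.14, 12.00, 12.16 and 11.80 in control and at 12.85, 13.10, 12.90, 13.09 and 13.02 at 4 d, a rise of 1.22 (SE 0.20, adjusted p = 1.46e-05). At 16 d the arrays were at 12.91, 12.64, 12.72, 12.69 and 12.77, all above the control arrays, a difference of 0.98 (adjusted p = 0.000904). The 6 d and 8 d differences were 0.89 and 0.81, both called, and 8 d replicate 2 alone, at 11.79, lay within the control range.

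The mu genes differed in their course after 4 d. Gstm1 stood at 11.93, 11.78, 12.08, 12.08 and 12.12 in control and at 12.44, 12.78, 12.96, 12.95 and 12.95 at 4 d, a rise of 0.82 (adjusted p = 0.000337), and from 4 d to 6 d it fell by 0.67 (adjusted p = 0.0142), a call lost without 6 d replicates 2 or 5. Gstm2 was lower than control by 1.54 at 1 d and higher by 1.58 at 4 d (adjusted p = 3.88e-05 and 5.36e-05). Its 4 d arrays stood at 9.21, 9.67, 10.54, 9.72 and 9.71, against 8.47, 7.87, 7.91, 8.23 and 8.45 in control. At 16 d Gstm2 was higher than control by 1.20 (adjusted p = 0.00406), and it was not called at 6 d and 8 d. Gstm6 and Gstm7 were called higher than control at 4 d, 6 d, 8 d and 16 d.

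Gstm6 stood at 8.08, 7.56, 7.93, 8.27 and 8.10 in control, at 9.0, 9.23, 9.21, 9.5 and 9.23 at 4 d and at 9.85, 9.60, 10.04, 9.10 and 9.71 at 16 d. Its differences from control were 1.24 at 4 d, 1.40 at 6 d, 1.35 at 8 d and 1.67 at 16 d, the last a 3.19-fold higher value (SE 0.24, adjusted p = 4.15e-06). Gstm7 stood at 8.72, 8.41, 8.02, 8.08 and 8.54 in control and at 9.40, 9.28, 9.54, 8.78 and 9.40 at 16 d, a difference of 0.93 (adjusted p = 0.000513). It was also higher by 0.92, 0.82 and 0.83 at 4 d, 6 d and 8 d, and all arrays lay above the control arrays at each of the 4 times.

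Gstm5 was higher than control at 1 d by 0.56 (adjusted p = 0.0256), and at every later time measured. The 1 d call was lost without 1 d replicates 4 or 5 or control replicate 3, with ribosomal centring or array weights, without the 3 narrow arrays and with the compared groups alone. Its control arrays stood at 7.55, 7.45, 6.38, 7.79 and 7.90, where the low value is the array of narrow spread, and its 4 d arrays at 9.08, 8.62, 8.60, 8.64 and 8.62. The differences from control were 1.35 at 2 d and 1.3 at 4 d (SE 0.19, adjusted p = 3.06e-07 and 2.44e-06), and 0.75, 0.86 and 0.76 at 6 d, 8 d and 16 d. The 6 d and 16 d calls were lost without control replicate 3.

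The theta genes split. Gstt1, which acts on small halogenated compounds, was lower than control by 0.71 and 0.74 at 12 h and 1 d and higher by 0.67 at 4 d (adjusted p = 0.000344, 0.000123 and 0.000894), with no overlap at any of the 3 times. Gstt2 was lower than control at 1 d and 2 d, was not called at 4 d, and was lower again from 6 d to 16 d. It stood at 10.06, 10.00, 9.97, 10.25 and 10.20 in control, at 9.26, 9.25, 9.37, 8.98 and 8.97 at 2 d, and at 9.58, 9.86, 9.66, 10.07 and 9.63 at 4 d. At 6 d it was at 9.16, 8.58, 8.69, 8.94 and 9.16, at 8 d at 9.01, 8.86, 8.75, 9.16 and 8.67, and at 16 d at 9.14, 9.05, 9.25, 8.01 and 9.13. The differences at these 3 times were -1.19, -1.21 and -1.18 (SE 0.18, adjusted p = 6.8e-06, 4.78e-06 and 7.88e-06), and all arrays lay below the control arrays. Gsto1, which reduces dehydroascorbate, was lower than control by 0.49 at 2 d and by 0.35 at 16 d (adjusted p = 6.07e-06 and 0.00464).

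After 4 d fewer genes differed from control. At 6 d 5 were higher and 2 lower, where 5.89% and 2.64% of all genes were, at 8 d 7 and 2, against 5.19% and 2.81%, and at 16 d 5 and 2, against 3.31% and 3.35%. From 4 d to 6 d 6 genes fell and 1, Ugt2b38, rose by 3.33 (adjusted p = 3.85e-06), where 1.56% and 0.82% of all genes did. The 6 d count of 7 dropped to 4 without control replicate 3, and the count of 7 between 4 d and 6 d dropped to 4 without 6 d replicate 2. The split at 6 d was 6 higher and 1 lower after ribosomal centring and 4 higher and 3 lower after quantile normalization. All these comparisons share the control arrays, so they are not independent of each other.

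**Figure D5:**
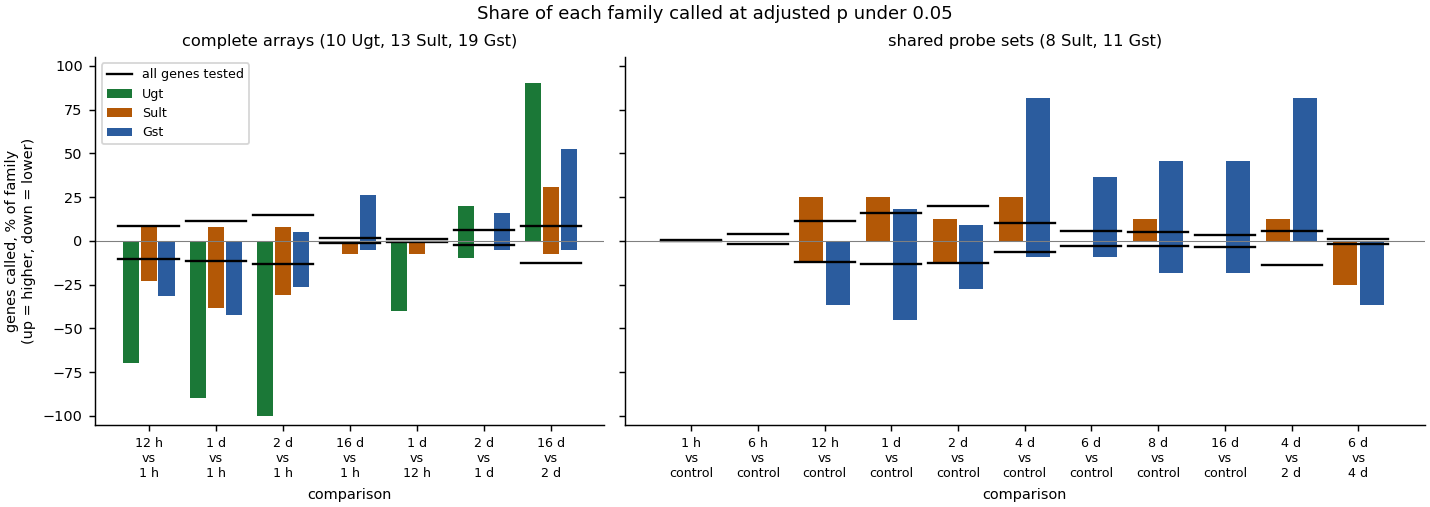
Share of each gene family called higher (up) or lower (down) at an adjusted p under 0.05, in percent of the family, for the comparisons on the complete arrays (left) and on the shared probe sets (right); black lines mark the share of all genes tested. All 10 Ugt genes are called lower at 2 d against 1 h, and 9 of 11 Gst genes are called higher at 4 d against control.

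Genes that supply or handle the conjugates, from lists chosen with earlier results of these data known, changed in both directions. Of all genes 8.29%, 11.6% and 14.8% were higher and 10.3%, 11.7% and 13.3% lower at 12 h, 1 d and 2 d against 1 h. At 4 d against control the shares were 9.99% and 6.54%. These shares also apply to the lists of the next 2 paragraphs. For UDP-glucuronic acid, 2 of 5 genes were higher and 1 lower at 12 h against 1 h: Ugdh, which makes the donor, by 0.93, Slc35b1, a carrier of the endoplasmic reticulum, by 0.76, and glycogen synthase Gys2 by -1.02. For PAPS supply 0 of 7 were higher and 2 lower at 12 h, with Papss2, the liver PAPS synthase, at -1.62, and at 1 d it stood at -2.58. At 1 d Papss1, the second PAPS synthase, was higher by 0.64. Against control at 4 d Papss1 and Papss2 were higher by 1.15 and 1.09 and Ugdh by 0.61. Among 10 genes of glutathione synthesis and recycling 4 were higher and 2 lower at 12 h, led by Gclc, the rate-limiting synthesis enzyme, at 1.92 and the cystine carrier Slc7a11 at 1.55. Cth and Cbs, enzymes that make cysteine, were at -1.20 and -0.57.

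The NRF2 targets outside the 3 families rose early. Srxn1, Hmox1, Txnrd1 and Nqo1 were all higher at 12 h against 1 h, by 3.72, 2.40, 1.99 and 1.5. All 4 were still higher at 1 d, and 2 of the 4 at 2 d. At 12 h 0 of the 19 Gst genes were called higher. At an unadjusted limma p under 0.05, which 31.6% of all genes passed in either direction, 1 of the 19 was higher. At 4 d, when 9 of 11 Gst genes were above control, 0 of the 3 targets measured were called by limma or had an unadjusted p under 0.05. Nqo1 differed from control by 0.42, Txnrd1 by 0.04 and Srxn1 by 0.01, the last on a probe set that rose by 1.75 at 12 h. The 12 h and 4 d comparisons differ in their reference group and in the genes measured. Any part of NRF2 in the changes of the Gst genes was not tested. The 3 APAP-oxidising cytochromes, Cyp2e1, Cyp1a2 and Cyp3a11, were all lower at 1 d and 2 d against 1 h, Cyp2e1 by 0.87 and 1.01 and Cyp1a2 by 2.50 and 1.54.

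Of the remaining lists, 2 of 5 genes of mercapturate formation, which process glutathione conjugates, were lower at 12 h: Acy1 by 0.84 and Nat8 by 0.74. At 4 d against control Acy1 was higher by 0.79 and Nat8 by 1.08. Of 4 efflux carriers of conjugates 0 were higher and 2 lower at 12 h, Abcc3 by 0.86 and Abcg2 by 0.48. Abcc4 was higher by 1.10 at 1 d and by 1.62 at 2 d, Abcc2 was lower by 0.55 at 2 d, and at 16 d Abcc3 was lower by 1.16. Among 11 regulators of conjugation genes 3 were lower and 1 higher at 12 h: Ppara by -1.19, the pregnane X receptor Nr1i2 by -1.09, Hnf4a by -0.54, and Nfe2l2, which encodes NRF2, by 0.87. Of 7 other transferases 3 were higher at 2 d, led by Clic1 at 2.09 and Mgst3 at 1.82. Of 3 enzymes that split conjugates the lysosomal glucuronidase Gusb was higher at 2 d by 0.67 and Arsb lower at 12 h by 0.88.

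Promoter windows of 300 bases, from 250 before to 50 after a RefSeq start site on GRCm38.p6, were found for 37 of the 42 genes (47 windows). The antioxidant response element core TGACNNNGC, searched on both strands, lies in 3 of the 47 windows (6.38%), against 12.4% of all 32851 windows. The 3 belong to Gsta3, Gstm5 and Gstm7. The core GCGTG of the xenobiotic response element lies in 10 of the 47 windows (21.3%), against 32.4% of all. The cores TTCNNNGAA and GTTAAT, added after the values were seen, lie in 2 and 5 windows, against 8.3% and 7.1% of all. A match says only that these letters are present in the window. The 250 bases before the start sites of Gsta3 and Gstm5, both higher than control from 4 d to 16 d, are shown with the match in capitals. Gstm7 holds the match in 1 of its 2 windows, at position -129 from that start site, and is not shown.

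Gsta3, GRCm38.p6 chr1:21240335-21240584, + strand: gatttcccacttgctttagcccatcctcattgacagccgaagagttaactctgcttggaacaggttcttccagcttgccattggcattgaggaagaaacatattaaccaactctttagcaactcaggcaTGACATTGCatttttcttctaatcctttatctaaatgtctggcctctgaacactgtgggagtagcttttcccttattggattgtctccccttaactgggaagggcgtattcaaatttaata

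Gstm5, GRCm38.p6 chr3:107895604-107895853, + strand: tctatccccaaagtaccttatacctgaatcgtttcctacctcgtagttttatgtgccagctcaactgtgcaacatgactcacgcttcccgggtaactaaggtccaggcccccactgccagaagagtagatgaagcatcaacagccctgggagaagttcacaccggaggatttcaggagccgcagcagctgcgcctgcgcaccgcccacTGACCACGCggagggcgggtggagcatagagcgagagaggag

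The match in Gsta3 starts 121 bases before the start site and that in Gstm5 42 bases before it. The last 5 bases of the Gstm5 match are also a match to GCGTG on the opposite strand.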

How the data were processed

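Whole liver RNA was measured on 1-colour Affymetrix mouse genome arrays. The deposited values are log2 expression values that the authors made with RMA in oligo 1.52.0, per the submitters' processing notes, and they were used unchanged. Such values compress differences near both ends of the scale, and no label or header says which arrays were normalized together. Probe sets were named from the platform annotation, only where it gives 1 gene symbol (34958 of 45101 probe sets, and 7370 of the 8137 shared by all arrays), and a gene is its probe set of highest mean. Groups were compared with limma 3.58.1 in R 4.3.3, 1 mean per group, in a fit of the 25 complete arrays and a fit of all 49, with Benjamini-Hochberg adjustment over all genes. The fit was tested on simulated data. The number of arrays limits the precision. Values on every array are given for 19 genes: 16 called with a log2 difference of at least 1 and no overlap between the groups in a comparison (at most the 6 largest in each direction), and the 3 measured singly of a panel known for APAP. They are also given for Gsta2, Sult5a1 and Ugt3a2, chosen after their values were seen. Other genes are given by single values, and the lists of pathway genes by counts and the 2 largest called changes in each direction. The genes, lists and tests were chosen with earlier results of these data known. Alternatives changed the scaling, probe set choice, filter, model and arrays. Protein sequences were not used here.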

Additional observations from a re-analysis of the deposited data

Results flagged for a closer look

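Of 145 groups of arrays tested among the described genes, 13 held an array far from the others, where chance gives about 1 in 20. Of these, 4 are 16 d replicate 4, one of the arrays of narrow spread: Gsta4 at 8.26, Gstm5 at 7.59, Gstt2 at 8.01 and Sult1a1 at 10.66, each the lowest of its group. The narrow 1 h replicate 3 was lowest for Gstm5, at 7.05. In 8 d replicate 2 Gsta3 was lowest at 11.79 and Gstm6 at 8.15. Ugt2a3 was lowest in 1 d replicate 4 at 8.86, and Ugt2b1 in 12 h replicate 1 at 9.88. Arrays that were highest in their group were 1 d replicate 5 for Gstm7 at 7.64, 1 h replicate 1 for Ugt2b35 at 11.71, 16 d replicate 2 for Ugt2b38 at 10.19 and 4 d replicate 1 for Gstm5 at 9.08.

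Some genes were called lower at one time and higher at another. They and the times were chosen for those opposite calls, so the differences between the times are given without a test. Gstm6 differed by 2.69 and Gstm7 by 1.97 between 16 d and 1 d, on the complete arrays and on the shared probe sets alike. Gstm2 differed by 3.12 and Gstt1 by 1.41 between 4 d and 1 d. Gsta2 differed by 1.85 between 4 d and 2 d, Sult1b1 by 1.39 between 8 d and 12 h and Ugt2b38 by 5.11 between 8 d and 2 d.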

How the results depend on the processing

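No result reversed under the alternatives run. For 19 results of single genes, 1 for each described gene and chosen for its large difference, 386 of 406 alternatives kept the call and 20 lost it. Of all 189 calls of the genes over 18 comparisons, 54 were lost with at least 1 of the arrays left out in turn. Of the counts, 189 of 204 other settings and 165 of 179 values with 1 array left out stayed within 1.5 times. Ribosomal centring called 26 genes at 12 h and 35 at 2 d against 1 h and 13 at 2 d against control, where median centring called 14. With it the median log2 difference of all genes was -0.329 at 12 h, -0.472 at 1 d and -0.421 at 2 d against 1 h. Without it these medians were -0.080, -0.070 and -0.077. Array weights called 14 genes at 16 d against 1 h, 12 between 1 d and 2 d, 4 at 6 h and 11 at 16 d against control. Quantile normalization called 10 between 12 h and 1 d and 3 at 6 h, where median centring called 1 and the fit without the 3 narrow arrays 3. The compared groups alone gave 3 between 12 h and 1 d, and 1 at 6 h and 4 at 12 h against control. The cause was not tested for any of these. With 1 array left out the counts ranged from 11 to 18 at 12 h and 2 to 7 at 16 d against 1 h, and against control from 0 to 1 at 6 h, 5 to 9 at 12 h and 4 to 7 at 6 d, and from 4 to 7 between 4 d and 6 d. Whether arrays of the same replicate number share a batch is not known and was not tested. With group means taken out, 27 of 50 same-number pairs correlated above 0.1. The mean correlation was 0.07 for same-number pairs and -0.01 for other pairs between groups, and 8 of 25 arrays correlated best with their own number. With the replicate number as a block 17, 23, 21 and 8 genes were called at 12 h, 1 d, 2 d and 16 d against 1 h. The block ended the calls of Sult2b1 at 2 d against 1 h, of Ugt2b38 at 6 d against control and of Ugt2b38 between 2 d and 4 d. Low signal limits the genes near background, and also Sult4a1 on the shared probe sets.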
